A study of Mus musculus with 8 samples.

Results

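The regions described here carried a DRIP-seq peak in both libraries from *Rtel1*-deleted cells and none in either library from control cells. They were obtained by merging overlapping peaks (at least 1 bp) of the 4 peak lists into union regions and keeping those with a Cre mock peak and a Cre DOX peak and no peak of GFP mock or GFP DOX. There were 7846 such regions among 194961 union regions (4.02%), covering 6.77 Mb with a median width of 729 bp, and they are called Cre-shared regions below. Peak presence chose them, so their presence in the Cre lists and absence from the GFP lists is a description and not a result. The working name of the group, peaks that resist RNaseH1, goes further than the rule: a peak call on either side of doxycycline does not show that the signal was undiminished, and the level of the induced enzyme is not part of a peak list.

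R-loops are three-stranded structures in which an RNA pairs with its DNA template and leaves the other DNA strand unpaired. They form behind RNA polymerase, often near promoters and over G-rich non-template strands, which can fold into G-quadruplexes (G4s), and RNaseH1 removes them by degrading the RNA of the hybrid. RTEL1 is a DNA helicase that unwinds G4s and the lariat at telomere ends and acts during DNA replication. DRIP-seq captures RNA:DNA hybrids on fragmented genomic DNA with the S9.6 antibody and sequences the DNA.

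All cells were mouse embryonic fibroblasts (MEFs) named Rtel1F/F;WT RNH1-GFP, which carry floxed *Rtel1* and a doxycycline-inducible WT RNaseH1-GFP, so that the controls carry both as well. GFP mock cells received GFP adenovirus and a mock treatment, and GFP DOX cells received the same virus followed by doxycycline at 2 μg/ml. Cre mock and Cre DOX cells received Cre-GFP adenovirus, which deletes *Rtel1*, with the matching treatments. Doxycycline was given 48 h after the virus and cells were collected 48 h later. Each of the 4 conditions had 1 DRIP library, pooled from 3 immunoprecipitations, and whether the line is a single clone is not given in the sources used here. With 1 library per condition there is no replicate error, no test between conditions was made, and a difference between conditions cannot be told apart from one between libraries. Each share has an exact 95% interval (Clopper-Pearson), which covers counting error only and treats regions as independent, and the read depth of the libraries is unknown.

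The GFP mock list held 87613 peaks and the GFP DOX list 60219, and the Cre mock and Cre DOX lists held 91097 and 105081. *Rtel1* itself held no Cre-shared region, since its 3 union regions each belonged to a single list, Cre mock or Cre DOX. Neither *Actb*, *Bcl6* nor the cells' own mouse *Rnaseh1*, which is not the induced transgene, held one. Both union regions at *Actb* were in all 4 lists, and the single one at *Bcl6* was in Cre DOX alone. None of the 12 fibroblast marker genes had a Cre-shared region in its promoter, and 6 of them had a union region of any kind there, so the peaks of this group do not bear on the cell type.

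The sequences of a few highly ranked regions are shown first, because they differ in kind and stand for the sequence classes described further on. Regions were ranked by the lower of their percentiles of peak score within the Cre mock list and within the Cre DOX list. All region sequences are from the plus strand of mm10 (GRCm38), 5′ to 3′. The region of rank 2, at chr4:109988229-109988441, is intergenic with a GC content of 66.2%, and capitals mark the windows predicted to form a G4.

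chr4 intergenic region: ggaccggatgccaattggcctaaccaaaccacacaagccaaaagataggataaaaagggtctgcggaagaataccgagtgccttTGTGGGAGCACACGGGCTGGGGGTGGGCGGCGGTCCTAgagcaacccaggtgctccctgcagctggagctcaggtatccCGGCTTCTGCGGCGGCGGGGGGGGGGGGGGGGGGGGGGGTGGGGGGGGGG

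The regions of rank 3 and 4, at chr12:115728411-115728645 and chr14:113377095-113377334, are intergenic and wholly repeat-masked. Capitals mark stretches made of 31-base words that at least 50 Cre-shared regions hold.

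chr12 intergenic region: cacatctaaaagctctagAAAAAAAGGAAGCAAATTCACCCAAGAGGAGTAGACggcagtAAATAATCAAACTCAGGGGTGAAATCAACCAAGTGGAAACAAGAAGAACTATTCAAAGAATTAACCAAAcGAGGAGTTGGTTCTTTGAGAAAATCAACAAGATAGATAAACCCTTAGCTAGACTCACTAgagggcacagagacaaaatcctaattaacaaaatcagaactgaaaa

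chr14 intergenic region: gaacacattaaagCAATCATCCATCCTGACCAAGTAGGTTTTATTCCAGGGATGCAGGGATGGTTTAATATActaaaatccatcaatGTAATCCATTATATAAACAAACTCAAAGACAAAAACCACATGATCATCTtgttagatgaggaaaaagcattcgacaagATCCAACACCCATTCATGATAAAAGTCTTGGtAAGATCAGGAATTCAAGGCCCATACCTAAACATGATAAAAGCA

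The 31-base word held by the largest number of Cre-shared regions is given next, in capitals throughout. A word and its reverse complement were counted as the same word, and the alphabetically first of the pair is printed.

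Word of 31 bases: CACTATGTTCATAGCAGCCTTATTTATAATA

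It was present in 335 of the 7846 regions (4.27%). The last sequence is a promoter outside repeats, the region of rank 95 at chr6:137139136-137139348 in *Rerg*, a gene for a small Ras-like GTPase on the minus strand. It contained no masked base, no predicted G4 and no widely shared word, so it has no capitals.

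Rerg promoter region: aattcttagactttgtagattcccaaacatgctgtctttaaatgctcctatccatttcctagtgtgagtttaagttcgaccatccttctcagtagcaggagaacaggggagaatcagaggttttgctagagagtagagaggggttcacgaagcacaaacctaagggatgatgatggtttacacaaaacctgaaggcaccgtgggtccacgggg

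Cre-shared regions were 1 of 15 possible combinations of lists, and not the most frequent. The 3 most numerous combinations were regions of a single list, with 48564 in Cre DOX, 34620 in Cre mock and 33107 in GFP mock. All 4 lists shared 17359 regions. The mirrored combination, GFP mock and GFP DOX with no Cre peak, held 1937 regions and is called GFP-shared below. Of the 42466 Cre mock regions with no GFP peak, 18.5% (18.1 to 18.8) also had a Cre DOX peak, whereas 5.53% (5.29 to 5.77) of the 35044 GFP mock regions with no Cre peak had a GFP DOX peak. Read from the doxycycline side the shares were closer, at 13.9% (13.6 to 14.2) for Cre DOX and 12.8% (12.3 to 13.4) for GFP DOX. The Cre DOX list is the longest and has the widest peaks, and the GFP DOX list is the shortest, so list size and condition cannot be told apart in these shares. When every list was cut to its best 60219 peaks there were 3322 Cre-shared and 2362 GFP-shared regions, and with top-decile peaks required in the sharing lists there were 51 and 92, so that the order of the genotypes was then the opposite. The last setting is the nearest to the paper's own analysis, which used only top-decile peaks of each sample. It differs in that the lists without a peak were kept whole here.

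**Figure D1:**
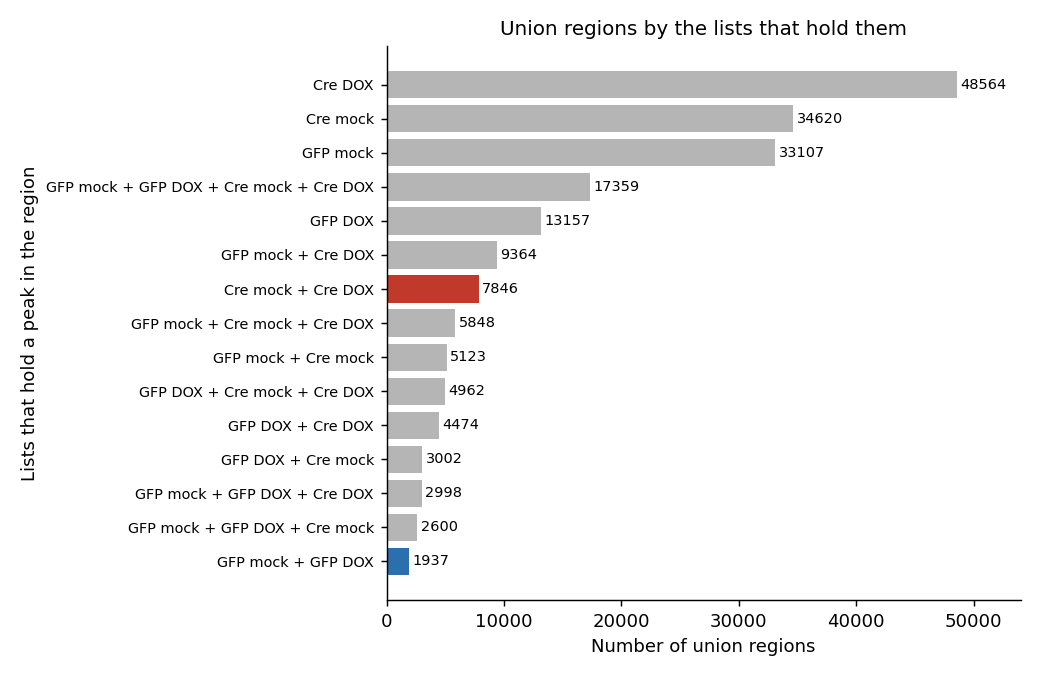
Number of union regions (x axis) for each combination of the 4 peak lists (y axis), with Cre-shared regions in red and GFP-shared regions in blue. The red bar stands at 7846 regions, with 6 combinations above it, and the blue bar is the shortest at 1937.

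The peaks that make up the Cre-shared regions had scores near the middle of their lists, with few at the top. A peak's score equals 10 times the −log10 of its q-value. In Cre mock the best peak of a region had a median score of 18 (quartiles 15 and 22), against 19 over the whole list. In Cre DOX the median score was 17 (quartiles 14 and 22, highest 205), against 18 over the list. The median percentiles within the lists were 47.4 and 47.5. Regions in all 4 lists had higher median scores, of 24 for Cre mock and 26 for Cre DOX. Median fold enrichment over the local background was 3.42 for Cre mock peaks and 3.07 for Cre DOX peaks, and 76.6% of regions had the lower value in Cre DOX. This is not a measured loss, because fold enrichment was not normalised between lists, whose medians were 3.48 and 3.12, and 68.7% of the regions in all 4 lists had the lower value in Cre DOX as well. Only 395 regions (5.03%) reached the top decile of Cre mock scores and 498 (6.35%) that of Cre DOX scores. The 51 regions (0.650%) in the top decile of both lists are few, and 2321 regions (29.6%) were below the median score of both.

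Rank in one list told little about rank in the other. Over the 7846 regions the Spearman correlation of the scores was 0.08, against 0.26 over the regions in all 4 lists. Both are given as a description, since the regions come from the same pair of libraries. A region could be strong in Cre mock and near the limit of calling in Cre DOX. An example is the *Snora73a* and *Snora73b* region in the RNA host gene *Snhg3*, with a score of 48 in Cre mock but 14 in Cre DOX. The opposite was found at an *Mmp2* promoter, the gene for a matrix metalloproteinase, with 13 in Cre mock and 27 in Cre DOX.

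**Figure D2:**
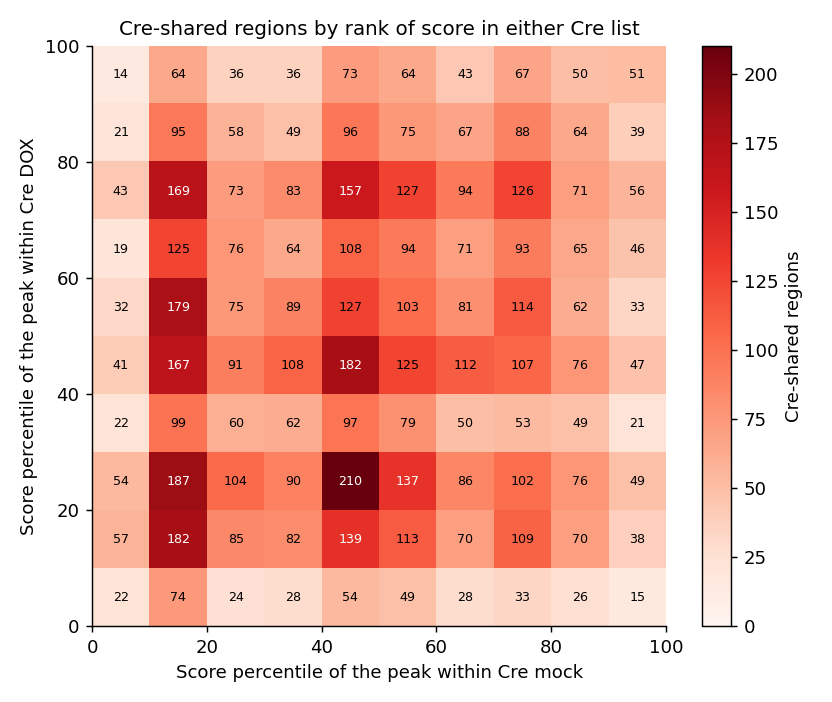
Number of Cre-shared regions in each cell of 10 by 10 score percentiles, within Cre mock (x axis, %) and within Cre DOX (y axis, %); scores are whole numbers with many ties, which makes some rows and columns fuller. The upper right cell, with both peaks in the top 10% of their lists, holds 51 regions, and the fullest cell holds 210.

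The Cre DOX peak was the wider of the pair in 5697 regions (72.6%), and the median ratio of its width to that of the Cre mock peak was 1.67 (quartiles 0.939 and 3.13). The ratio was 1.89 over regions in all 4 lists, so broader Cre DOX peaks were not confined to Cre-shared regions. For GFP DOX over GFP mock it was 1.04 in regions of all 4 lists and 0.939 in GFP-shared regions. The best Cre mock peak of a region was at least 132 bp wide and the best Cre DOX peak at least 213 bp. The pair overlapped by a median of 212 bp, and the median share of the narrower peak within the overlap was 97.4%. In 3730 regions (47.5%) the narrower peak lay wholly within the other, and 1128 (14.4%) were joined by an overlap of at most 100 bp.

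The boundary of the rule was close to many regions. The nearest GFP peak was a median of 2062 bp away (quartiles 682 and 9110), and 2645 regions (33.7%) had one within 1 kb. Regions of Cre mock only were farther from GFP peaks, with a median of 4521 bp and 22.3% within 1 kb. GFP-shared regions were about as close to Cre peaks as Cre-shared regions were to GFP peaks, with a median of 2074 bp and 37.3% within 1 kb. Just inside the rule, 357 regions (4.55%) had a GFP peak within 100 bp, the nearest at 1 bp, with median scores of 18 in Cre mock and 17 in Cre DOX. Just outside, 540 regions with both Cre peaks were left out for a GFP peak that shared at most 100 bp with a Cre peak, and their median scores were 19 and 17. A further view of the same boundary is that 3003 of the 28169 regions left out for a GFP peak had GFP peaks of a score under 15 only. The DNA was cut with 5 restriction enzymes, and a peak can extend over a whole fragment. Of the Cre-shared regions 24.9% (23.9 to 25.8) lay on restriction fragments that also held a GFP peak, near the 23.6% of regions in Cre mock only. Within narrower classes these shares differed. At 500 to 1000 bp they were 26.4% of Cre-shared regions and 31.3% of regions in Cre mock only. Among regions at most 50% repeat-masked they were 42.2% (40.2 to 44.2) and 26.1%. A cutting site was within 56.5% of Cre-shared regions, 37.2% of all union regions and 82.4% of regions in all 4 lists, and among regions of 500 to 1000 bp these shares were 55.1%, 49.0% and 56.3%.

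The place of the regions in the genome was not used by the rule. Promoters, within 1 kb of a transcription start site, held 12.6% of Cre-shared regions (95% interval 11.8 to 13.3), against 12.9% of all union regions, 18.4% of regions in all 4 lists and 21.7% (19.9 to 23.6) of GFP-shared regions. Another 6.77% were exonic, 27.3% intronic and 53.3% (52.2 to 54.4) intergenic. The intergenic share was 50.2% of all union regions, 58.3% of regions in all 4 lists and 38.6% (36.4 to 40.8) of GFP-shared regions. A predicted G4 was found in 26.2% of Cre-shared regions (25.2 to 27.2), close to 27.0% of all union regions and below 41.7% (39.5 to 43.9) of GFP-shared regions and 44.3% of regions in all 4 lists. Regions in Cre mock only, with a median width of 234 bp, were at 25.3%. Among regions of 500 to 1000 bp a predicted G4 was in 26.6% of Cre-shared, 55.9% of GFP-shared and 45.5% of regions in all 4 lists, in 46.7% of those in Cre mock only and in 35.0% of all union regions, so the order of Cre-shared regions and regions in Cre mock only depended on width.

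Most Cre-shared regions were repeats. Over 50% of the sequence was repeat-masked in 69.6% of them (68.6 to 70.6), against 58.5% of all union regions, 43.6% (41.3 to 45.8) of GFP-shared regions and 32.4% of regions in Cre mock only, with 35.3% of the bases of the genome masked. At 500 to 1000 bp the share was 66.7% of Cre-shared regions, 63.3% of all union regions and 36.1% of GFP-shared regions. Regions in all 4 lists were then at 68.8%, and the gap to all union regions was smaller than over all widths. The median GC content of Cre-shared regions was 41.6% (quartiles 37.5 and 47.3), near that of the genome at 41.7% and below the 49.4% of GFP-shared regions. At 500 to 1000 bp it was 42.3%, against 43.8% for all union regions and 50.2% for GFP-shared regions. The plot of shares by class sets these features side by side: for repeats Cre-shared regions lay next to regions in all 4 lists, and for promoters and predicted G4s, without regard to width, next to all union regions.

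**Figure D3:**
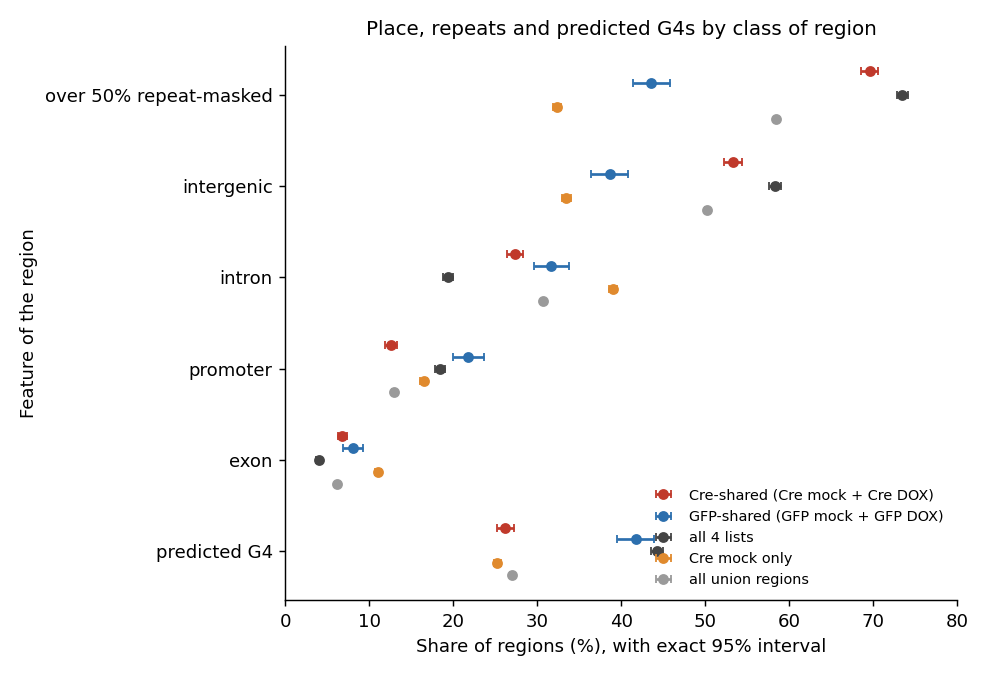
Share of regions (x axis, %) with each feature (y axis), as points with exact 95% intervals, for 5 classes of region; the last class contains the others. Cre-shared regions (red) stand at 69.6% for repeats and 26.2% for predicted G4s, and GFP-shared regions (blue) at 43.6% and 41.7%.

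Repeat content moved with the Cre DOX list. In the other 7 combinations that include Cre DOX the share of mostly masked regions was between 69.4% and 87.1%, and in the 7 combinations without Cre DOX it was between 28.2% and 50.4%. Median GC content was 38.9% to 43.7% in the former and 47.5% to 52.0% in the latter. Neither range overlapped the other, and the Cre-shared values of 69.6% and 41.6% were within the first. Regions found in Cre DOX alone, for instance, were mostly masked in 74.4%. Promoter and G4 shares had no such division: with Cre DOX they were 6.20% to 18.4% and 16.9% to 44.3%, and without it 11.4% to 33.9% and 21.3% to 60.8%. The part of this single library in the repeat content of the Cre-shared regions was not tested, and whether it is a property of the cells or of the library cannot be told apart.

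**Figure D4:**
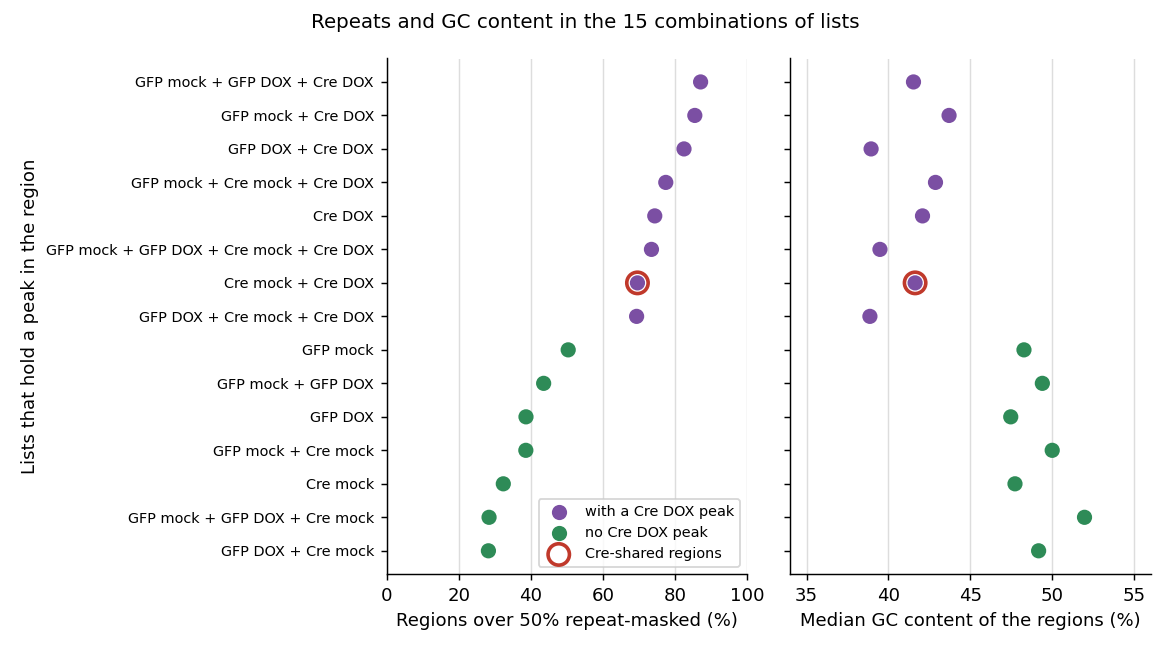
Share of regions over 50% repeat-masked (left, %) and median GC content (right, %) for the 15 combinations of lists (y axis), coloured by whether Cre DOX holds a peak, with Cre-shared regions ringed. All 8 points with a Cre DOX peak lie at or above 69.4% masked and at or below 43.7% GC, and the 7 points without one lie at or below 50.4% and at or above 47.5%.

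Many Cre-shared regions had sequence in common. Of the 31-base words in the Cre-shared regions, 5847 were held by at least 50 regions, and 64.2% of regions (63.1 to 65.3) contained at least 1 of them. These words were chosen on the Cre-shared regions, and they were also frequent elsewhere, in 41.5% of all union regions, 75.0% of regions in all 4 lists and 54.4% of regions in Cre DOX alone, but were in 23.5% of GFP-shared regions and 14.6% of regions in Cre mock only. Among regions of 500 to 1000 bp they were in 61.8% of Cre-shared regions, 57.4% of regions in all 4 lists and 53.9% of all union regions. Over all combinations the share was 54.4% to 78.9% with Cre DOX and 14.6% to 23.5% without it. They were concentrated in masked regions, with 86.4% of the mostly masked and 13.4% of the other Cre-shared regions holding one. At the other end, 1897 regions (24.2%) shared no 31-base word with any other Cre-shared region. A single-end read from a repeat can map to several copies, so which copy carried the signal is uncertain for such regions, and the repeat families are not named here.

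Simple tandem repeats of at least 24 bp with units of up to 6 bases were in 8.16% of Cre-shared regions (7.56 to 8.78), against 9.84% of all union regions, 7.45% of regions in Cre mock only, 14.1% of GFP-shared regions and 21.3% of regions in all 4 lists. Among regions of 500 to 1000 bp the shares were 7.25% of Cre-shared regions, 10.7% of all union regions, 13.6% of regions in Cre mock only, 18.2% of GFP-shared regions and 11.3% of regions in all 4 lists. The dinucleotide AC was the unit in 197 of the 640 Cre-shared regions with such a repeat (30.8%), near the 32.4% of all union regions with one.

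The share of repeats differed with the strength of the peaks. Among the 3065 regions whose lower score percentile was under 25, 63.4% (61.7 to 65.1) were mostly masked, and among the 353 regions above the 75th it was 80.5% (75.9 to 84.5). Over the same groups the share in promoters went from 14.3% (13.1 to 15.6) to 6.80% (4.40 to 9.95), and that with a predicted G4 from 29.4% (27.8 to 31.1) to 18.7% (14.8 to 23.2). Of the 51 regions in the top decile of both lists, 76.5% were mostly masked and 3.92% were in a promoter.

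**Figure D5:**
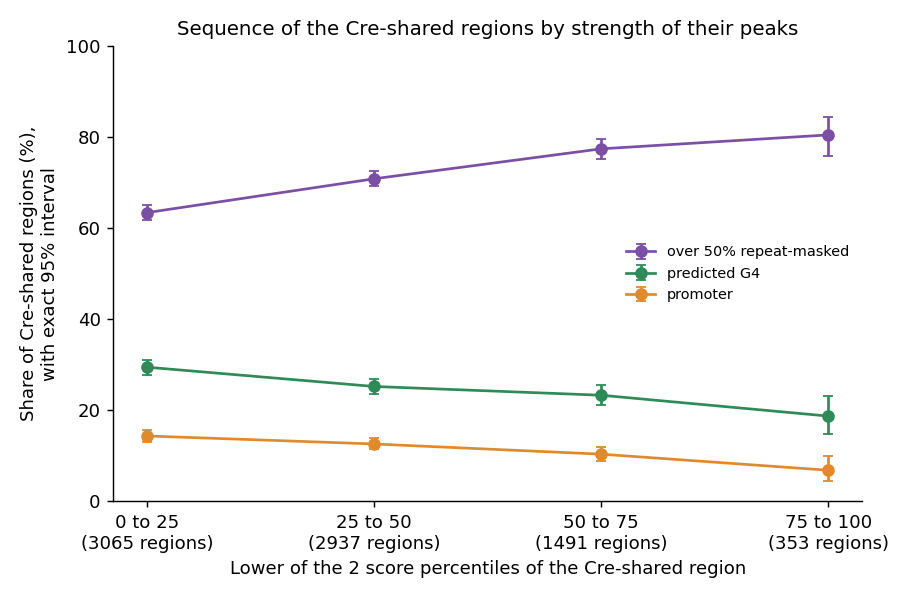
Share of Cre-shared regions (y axis, %) that are mostly repeat-masked, hold a predicted G4 or lie in a promoter, with exact 95% intervals, by the lower of their score percentiles in the Cre lists (x axis). The masked share is 63.4% in the weakest group and 80.5% in the strongest, and the promoter share is 14.3% and 6.80%.

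The 2385 Cre-shared regions that were not mostly masked had a different make-up. Promoters held 35.2% of them (33.3 to 37.2), introns 28.9%, exons 20.6% and intergenic sequence 15.3%, the median GC content was 48.8%, and 51.2% (49.2 to 53.2) contained a predicted G4. GFP-shared regions that were not mostly masked were in promoters in 33.2% (30.4 to 36.1) and held a predicted G4 in 51.9% (48.9 to 54.9). Both shares were close to the Cre-shared ones, although the regions differed in width, with medians of 702 bp for Cre-shared and 444 bp for GFP-shared regions. Exons held 20.6% (19.0 to 22.3) of Cre-shared and 13.4% (11.4 to 15.5) of GFP-shared regions. Intergenic sequence held 15.3% (13.8 to 16.8) and 23.1% (20.7 to 25.8). These intervals cover counting error only, so they cannot tell a difference between genotypes from a difference between libraries. Of all union regions that were not mostly masked, 13.4% were exonic and 25.8% intergenic. For regions in all 4 lists that were not mostly masked the shares were 13.4% and 14.4%. Regions in all 4 lists that were not mostly masked were wider, with a median of 1846 bp, and had higher shares, with 60.8% in promoters and 82.6% with a predicted G4. Among all union regions that were not mostly masked, 26.1% were in promoters and 36.9% held a predicted G4. In Cre mock only, regions that were not mostly masked were at 21.5% and 27.7%. These regions were narrower, with medians of 325 bp for all union regions and 255 bp for Cre mock only. The part of width in these shares was not tested.

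Cre-shared regions were on chromosome X in 725 cases (9.24%, 8.61 to 9.90), which holds 6.18% of the sequence and 7.33% of all union regions. Among regions of 500 to 1000 bp the shares were nearly equal, at 8.40% of Cre-shared and 8.33% of all union regions. Of the union regions of chromosome X 5.07% (4.72 to 5.45) were Cre-shared, the highest value of the 20 chromosomes with any, and chromosome 5 had the lowest, 3.25% (2.97 to 3.55). Chromosome X is also the most repeat-masked of these, at 44.7%. Regions of all 4 lists were on chromosome X in 11.5%, GFP-shared regions in 3.56% and regions of Cre mock only in 3.32%. Chromosome Y, of whose bases 92.5% are masked, held 27 union regions, too few to compare, and none was Cre-shared (exact upper limit 12.8%).

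Promoters of 820 of 21951 protein-coding genes (3.74%) held a Cre-shared region, out of 11053 with a union region of any kind. Over all 55450 annotated genes the number was 1170 (2.11%). GFP-shared regions were in the promoters of 367 protein-coding genes. The regions of rank 2 to 6 were all outside promoters. Beside the 3 of them printed above they were an exon of *Polr1b*, a subunit of RNA polymerase I, with scores of 84 in Cre mock and 56 in Cre DOX, and a masked intron of *Magi2*, a synaptic scaffold, with 101 and 52. The intergenic region on chromosome 4 had scores of 119 and 89. The repeat on chromosome 14 had the highest Cre DOX score of the group, 205, against 83 in Cre mock.

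The 15 regions of highest rank in promoters of protein-coding genes started at rank 66, while regions in promoters of other genes, such as the *Snhg12* region described with the snoRNAs, are not among them. The first lay at chr2:75704574-75705447 in the promoter of *Nfe2l2*, the transcription factor NRF2 of the antioxidant response, with scores of 32 in Cre mock and 30 in Cre DOX and a GC content of 63.6%. A GFP peak was 155 bp away from it. The *Rerg* region printed above scored 57 and 28, and the nearest GFP peak was 42436 bp away. *Aldh3a2*, a fatty aldehyde dehydrogenase gene, followed with 41 and 28, and *Maff*, a small MAF transcription factor, with 29 and 36. These values are far below those of the leading repeats.

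The *Ddx5* region, at a gene for a DEAD-box RNA helicase, was 2608 bp wide with scores of 29 in Cre mock and 26 in Cre DOX. *Gnl3*, which encodes nucleostemin and hosts small nucleolar RNAs (snoRNAs), scored 27 and 34. *Aars*, the alanyl-tRNA synthetase, scored 26 and 25, and *Rpl6*, a protein of the large ribosomal subunit, 25 and 26. The remainder were at *Ap3d1* (adaptor complex AP-3), *Orai3* (a calcium channel), *Plk3* (a polo-like kinase), *Pafah1b2* and *Sik3* (a shared promoter region), *Zfhx3* (a homeobox factor), *Crip2* (a LIM protein) and *Mup10*. The last is a major urinary protein gene in a family of close copies, so its reads may come from another copy. The highest Cre mock scores of the 15 were 57 at *Rerg*, 55 at *Orai3* and 41 at *Aldh3a2*. Of the 15 regions 11 held a predicted G4, none was mostly masked, and 8 had a GFP peak within 1 kb. As background, 840 of the 986 Cre-shared regions in promoters of any gene were not mostly masked. Of all Cre-shared regions that were not mostly masked 51.2% held a predicted G4, and 33.7% of all Cre-shared regions had a GFP peak within 1 kb.

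Gene groups are set against the 3.74% of all protein-coding promoters. Cytosolic ribosomal protein genes had a Cre-shared region in 11 of 91 promoters (12.1%, 6.19 to 20.6), and the promoters of 79 of the 91 held a union region of some kind, so that 13.9% of these 79 promoters held a Cre-shared one, against 7.42% for all protein-coding genes. Beside *Rpl6* the highest-ranked were *Rps25* (scores 22 in Cre mock and 27 in Cre DOX), *Rps3* (27 and 17) and *Rpl22* (33 and 15). DNA replication and checkpoint genes had one in 7 of 38 promoters (18.4%, 7.74 to 34.3), with a union region of any kind in 29, so that 24.1% of these held a Cre-shared one. The 7 genes were *Mcm3*, a subunit of the replicative helicase (25 and 20), *Clspn*, the mediator of ATR signalling called claspin (17 and 15), *Timeless* of the fork protection complex (33 and 13), *Orc1* of the origin recognition complex (15 and 13), and *Atrip*, *Gins2* and *Rad1*. These are narrow lists of genes whose promoters held peaks in most cases, and no test of either list was made.

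Of 31 R-loop and G4 processing factors, 3 had a Cre-shared region in the promoter (9.68%, 2.04 to 25.8). Beside *Ddx5* these were *Rnaseh2a*, the catalytic subunit of RNase H2, which removes RNA from hybrids (20 and 28), and *Slx4*, a scaffold for structure-specific nucleases (21 and 13). A GFP peak was 36 bp from the *Slx4* region. The counts for the immediate early genes, 2 of 27 (*Maff* and *Zfp36*), the p53 response genes, 2 of 20 (*Mdm2* and *Aen*), and the matrix genes, 2 of 31 (*Bgn* and *Mmp2*), were too small to set against the background. At *Mdm2*, the ubiquitin ligase for p53, the scores were 32 and 12. Replication-dependent histone genes had 2 of 67 (*Hist1h3c* and *Hist2h3c2*), and the 30 actin, tubulin and motility genes had none in a promoter (exact upper limit 11.6%). Among the latter, the gene bodies of *Rhoa*, *Tubb5* and *Vcl* overlapped a Cre-shared region.

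Of all their promoters, large gene families had lower shares than the 3.74%, but many of these promoters held no peak in any list. Odorant receptors had a Cre-shared region in 10 of 1093 promoters (0.915%, 0.440 to 1.68), vomeronasal receptors in 4 of 327 (1.22%, 0.334 to 3.10) and zinc finger protein genes in 5 of 394 (1.27%, 0.413 to 2.94). Of the promoters with a union region of any kind, the shares were 8.20% of 122 for odorant receptors, 8.00% of 50 for vomeronasal receptors and 2.91% of 172 for zinc finger protein genes, against 7.42% for all protein-coding genes. Hox genes had 0 of 39 (upper limit 9.03%) and clustered protocadherins 0 of 57 (upper limit 6.27%), although 12 protocadherin genes held a Cre-shared region in their overlapping gene bodies. For markers of other cell types, the promoter of *Syp* was the only hit among 4 neural markers, with scores of 32 in Cre mock and 13 in Cre DOX. Endothelial (4 genes), leukocyte (5) and epithelial (4) markers had none in a promoter. The gene bodies of *Adgre1* among the leukocyte markers and of *Krt5* and *Krt8* among the epithelial ones did overlap a Cre-shared region.

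Among non-coding genes the snoRNAs stood nearest to the protein-coding level, with 57 of 1507 promoters (3.78%, 2.88 to 4.87). Of the snoRNA promoters with any union region 17.2% held a Cre-shared one, against 7.42% for protein-coding genes. SnoRNA genes lie close together in introns of host genes, so the 57 rest on 33 regions, 23 of which overlapped a protein-coding gene. The region in *Snhg12*, with *Snora16a*, *Snora44* and *Snora61*, had scores of 27 in Cre mock and 36 in Cre DOX. That in *Snhg1*, with *Snord22*, had 12 and 18. Micro-RNA genes had 50 of 2202 (2.27%), antisense genes 51 of 2959 (1.72%), long intergenic RNAs 36 of 5854 (0.615%) and processed pseudogenes 63 of 9940 (0.634%).

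Gene bodies of 2541 protein-coding genes (11.6%) overlapped a Cre-shared region. The largest numbers were in long genes, which also held many union regions of other kinds. *Gm20388*, a gene model of 4435 kb, held 18, *Nkain2* held 13 and *Dmd*, the dystrophin gene, held 8. Their share of the union regions in the same gene was 2.59% for *Gm20388*, 9.35% for *Nkain2* and 7.14% for *Dmd*, against 4.02% overall. *Cntn5* (a neural adhesion molecule), *Sntg1* (a syntrophin), *Fam172a* and *A830018L16Rik* held 7 each, from 7.07% of union regions in *Sntg1* to 13.5% in *A830018L16Rik*. The distance from a Cre-shared region to the next had a median of 72753 bp, and 17.7% had another within 10 kb.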

How the data were processed

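DRIP-seq was carried out in 4 conditions with 1 immunoprecipitated library each, and the 4 input libraries were not analysed here. The restriction enzymes were EcoRI, HindIII, BsrGI, SspI and XbaI. The authors processed single-end reads with nf-core/chipseq 1.2.1 (BWA, mm10, MACS2) and deposited a broad-peak list per library, although the command they give names narrow peaks. Broad calling joins neighbouring enriched stretches, which can raise the overlap between lists, and this was not tested here. Whether the inputs served as controls is not given in the sources used here. The deposited score is a whole number, 10 times the −log10 q-value. The deposited ratio is the fold enrichment over local background, and the authors' peak caller also gave a −log10 p and a −log10 q-value per peak. None of them is normalised between libraries, and the submitters' processing notes name MACS2 and mm10.

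All rows were merged by overlap of at least 1 bp with Python 3.11.15, numpy 2.4.6, pandas 2.3.3 and scipy 1.17.1. Sequence was that of GRCm38.p6, with lower-case bases taken as masked, and genes were GENCODE M21. Classes were assigned in the order promoter (1 kb to either side of a start site), exon, intron, intergenic. Predicted G4s had an absolute G4Hunter score of at least 1.5 in a window of 25 bases on either strand. The feature counts were tested on simulated sequence. Named are 5 of the 6 regions of highest rank (the first is not reported here), the 15 highest in protein-coding promoters, the 5 protein-coding genes with most regions in the body (ties kept), the deleted gene, mouse *Rnaseh1* and the DRIP-qPCR loci, and up to 4 genes per gene list. The *Snhg* regions and the breakdown over the 15 combinations were chosen after their values were seen. Members and lists were chosen with earlier results of these data known. Samples were grouped by their labels.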

Additional observations from a re-analysis of the deposited data

How the results depend on the processing

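The number of Cre-shared regions, the number of GFP-shared regions, the share of Cre-shared regions in promoters, with a predicted G4 and mostly masked, their median GC content and the number of genes with one in the promoter were recomputed under each alternative. With peaks of −log10 q from 2 upward in all lists they were 4371, 800, 10.9%, 26.2%, 81.2%, 38.6% and 592. With equal numbers of the highest-scoring peaks they were 3322, 2362, 9.60%, 24.2%, 78.3%, 40.3% and 393. With top-decile peaks required they were 51, 92, 3.92%, 17.6%, 76.5%, 41.0% and 2. With an overlap of at least 50% of the narrower peak they were 6362, 1580, 11.5%, 24.9%, 71.6%, 41.3% and 883. With no peak of the other genotype within 1 kb they were 5201, 1214, 11.2%, 25.9%, 71.3%, 41.8% and 713. Without regions over 50% repeat-masked there were 2385 Cre-shared and 1093 GFP-shared regions, 35.2% in promoters, 51.2% with a predicted G4, a median GC content of 48.8% and 1022 genes. Promoters of 500 bp to either side gave 9.20% and of 2 kb 17.9%. A G4Hunter score of at least 2 gave 13.1% and a regular expression 12.5%. Protein-coding genes alone numbered 820.

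Cre-shared regions outnumbered GFP-shared ones in each setting except with top-decile peaks, and between 69.6% and 81.2% of them were mostly masked wherever repeats were kept. Of the 46 recomputed values 37 moved by more than counting error or, for counts, 1.5 times. The cause was not tested. No paired analysis was possible because each condition had 1 library and no test was made, and for the same reason no library was left out in turn. Unknown depth limits what the absence of a peak can show.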
